A study of Drosophila melanogaster with 14 samples.

Results

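The genes described here encode enzymes of sugar metabolism in the fly head. They were chosen by name, with earlier results of these data known. They are the hexokinases Hex-A and Hex-C, the glycolytic enzymes Pgi, Pfk, Gapdh1, Gapdh2 and PyK, the gluconeogenic enzyme fbp, the transketolase CG8036 and the glucose dehydrogenase Gld. Of these 10 genes, 8 had a probe set in the annotation used, 1 probe set each, among 18769 probe sets and 11981 genes. Gapdh2 and PyK were not analysed here. RNA from heads of Drosophila melanogaster of the fmn strain, which carries a mutation in the dopamine transporter gene DAT and had been backcrossed to the control strain, was compared with RNA from heads of control (w1118) flies. The fmn strain is a single mutant line that arose in y w flies, and the backcross to w1118 leaves the w mutation in both genotypes. All flies were reared at the same temperature on standard food. Flies of both genotypes were kept in cycles of 12 h of light and 12 h of darkness, and 1 sample per genotype was taken every 4 h from zeitgeber time (ZT, hours after lights-on) 0 to ZT 24, so that each genotype has 7 samples. A sample held the heads of many males and females, broken off after freezing and sieved, and was hybridized to 1 Affymetrix array.

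Hexokinase traps glucose in the cell as glucose 6-phosphate, which Pgi and Pfk carry on into glycolysis. Gapdh carries out the oxidative step of the route, and pyruvate kinase ends it. Fructose-1,6-bisphosphatase (fbp) reverses the step of Pfk and so opens the way from pyruvate back to glucose, whereas transketolase moves carbon between glycolysis and the pentose phosphate pathway. Insects carry glucose in the blood mostly as trehalose, which the fat body releases. In the fly brain, glia are known to take up sugar and to pass products of glycolysis on to neurons.

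The arrays were similar in overall brightness, with a 75th percentile of the signals between 566 and 588 on the fmn arrays and between 570 and 578 on the control arrays. The signal is the MAS5 intensity on a linear scale, and a higher signal of 1 probe set than of another is not read as a higher level of its transcript. Changes are given as fmn minus control on the log2 scale, with the 75th percentile of every array set to the same value. Calls of change required a limma p under 0.05 after Benjamini-Hochberg adjustment together with a log2 difference of at least 0.32 in size. The mutated gene DAT had a mean signal of 8.55 in fmn and 555 in control. In total 8641 probe sets passed the filter on low signals, and all 8 enzymes were among them, with no signal under 100 on any array. A probe set under 100 on all 7 arrays of 1 genotype fails this filter. DAT, with no fmn signal above 14.5, was therefore not tested. All 3 neuron, 4 glia and 3 photoreceptor markers with a probe set had signals of at least 100 on every array. The summed signal of 10 marker genes for testis and male accessory gland was 105 to 2328 on the fmn arrays, highest at ZT 4, and 96.3 to 2531 on the control arrays, highest at ZT 0. The 9 ovary markers reached 5337 and the 7 gut markers 8885 on the fmn array of ZT 8. The calls of the enzymes and of the pathway genes are therefore also given without these 3 arrays. The fmn array of ZT 12 stood apart in another way, with a summed signal of 3 neuron markers of 2305, against 4275 to 4597 on the other fmn arrays and 2860 to 3530 on the control arrays. Without it 753 probe sets changed, against 632 with all arrays. In a bulk head sample, fewer cells of a type and less RNA per cell cannot be told apart. No source says that the samples of a genotype came from separate cultures, so p-values measure the spread between these arrays, which includes the daily cycle.

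Of the 8 enzymes, 4 changed in fmn heads, 3 of them to higher and 1 to lower signals, whereas 7.31% of all tested probe sets changed (3.69% higher and 3.62% lower). Hex-C, CG8036 and fbp rose by 1.52-fold, 1.44-fold and 1.31-fold, and Gld fell to 0.467 of its control level. The other 4, Hex-A, Pgi, Pfk and Gapdh1, did not pass the test, with log2 differences between -0.08 and 0.04. The 4 changed genes had also been picked by the study from these same arrays. The count, separation, direction and size of their differences are therefore not independent evidence. The 4 enzymes that changed were also the 4 whose fmn and control signals did not overlap (5.01% of all tested probe sets), and the 4 with 1 direction at all 7 time points (20.9%). With the time point as a block, 4 of the 8 enzymes and 8.05% of all tested probe sets changed. The median absolute log2 difference of the 8 enzymes was 0.23, against 0.10 over all tested probe sets.

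**Figure D1:**
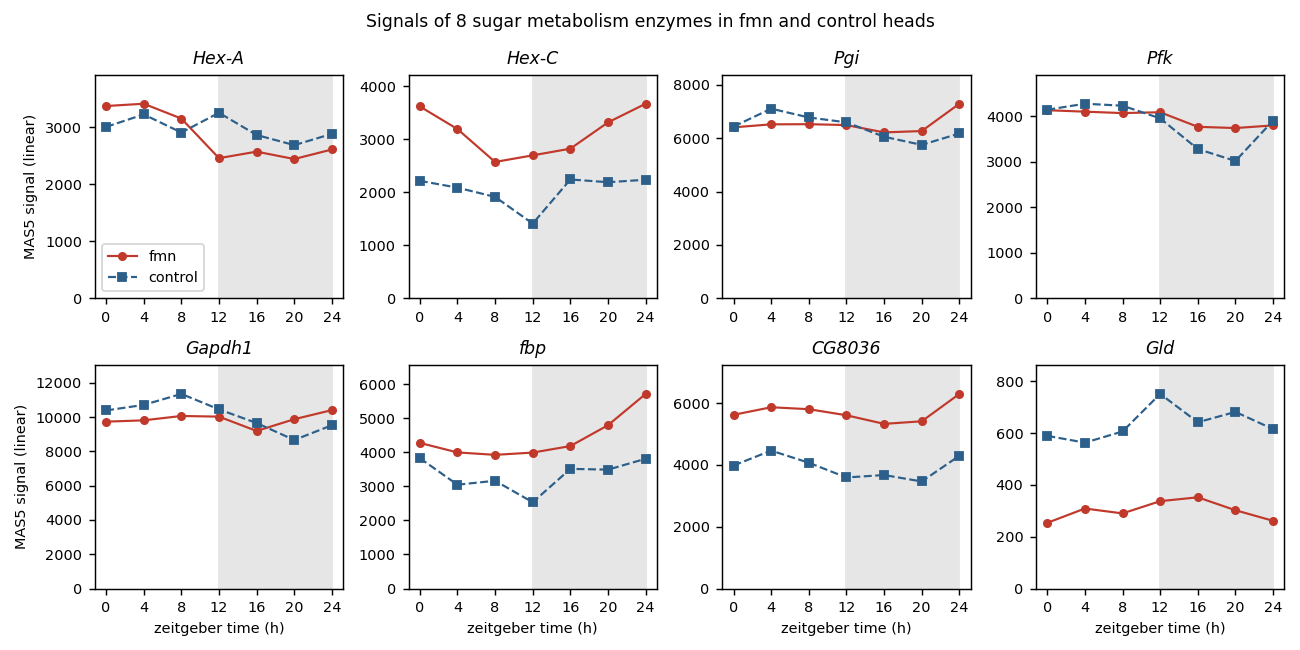
MAS5 signal on a linear scale (vertical axis, from 0) against zeitgeber time in hours (horizontal axis, dark phase shaded) for 8 enzymes, with 1 array per point in fmn (red circles) and control (blue squares). The fmn points of Hex-C, fbp and CG8036 lie above the control points and those of Gld below them at all 7 times, while the points of the other 4 enzymes cross.

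The hexokinase Hex-C, known in Drosophila as the fat body enzyme, was higher in fmn heads. Its signal ran from 2571 (ZT 8) over a median of 3191 to 3669 (ZT 24) in fmn, and from 1410 (ZT 12) over a median of 2189 to 2241 (ZT 16) in control. Every fmn array lay above every control array, and the control array of ZT 12 stood apart below the rest. The means were 3126 ± 440 in fmn and 2042 ± 302 in control (SD, n = 7 arrays each), and the log2 change was 0.60 ± 0.11 (SE, adjusted p = 0.00209, limma). By time point the difference was smallest at ZT 16 (0.31) and largest at ZT 12 (0.94). Without the control array of ZT 12 it was 0.52, and the call did not change.

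Hex-C lies on chromosome arm 2R close to the scb gene, with 1 protein-coding gene between them, and 178 protein-coding genes lie between Hex-C and DAT in the Release 6 annotation. The scb probe set had a mean signal of 66.3 in fmn and 473 in control, with no fmn signal above 82.6 and no control signal below 449. According to the study, base changes of the fmn strain lie under the scb probe set and account for its low signal. The study adds that the backcross apparently did not suffice to make the region of scb alike in both strains. Of the 93 tested probe sets of the genes between Hex-C and DAT, 14 changed (15.1%), 6 to higher and 8 to lower signals in fmn, against 7.22% of the tested probe sets elsewhere. The scb probe set failed the filter on low signals and is not among the 93. This stretch of genes was chosen after the values had been seen. Whether the 2 strains differ in sequence under the Hex-C probe set was not tested. The other 2R enzymes lie farther from DAT, with 883 genes between Pfk and DAT, 1070 for Pgi and 1242 for Gapdh1. The other enzymes that changed do not lie on 2R, with fbp on 2L and both CG8036 and Gld on 3R. A part of the position of a gene in its change was not tested.

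Hex-A, the X-linked hexokinase that is known in Drosophila as the main form of most tissues, did not pass the test. Its signal ran from 2443 (ZT 20) over a median of 2611 to 3413 (ZT 4) in fmn, and from 2687 (ZT 20) over a median of 2908 to 3255 (ZT 12) in control. The log2 difference was -0.08 with a standard error of 0.08 and a 95% interval of -0.26 to 0.09 (adjusted p = 0.532, limma). The genotypes overlapped. The fmn signals were 3373, 3413 and 3153 at ZT 0, 4 and 8, and 2459, 2573, 2443 and 2611 at ZT 12, 16, 20 and 24. The difference between genotypes was accordingly positive at the first 3 times (0.14, 0.05 and 0.07) and negative at the other 4, most at ZT 12 (-0.40). The fmn array of ZT 24 was among the low ones, although it shares its phase of the light cycle with ZT 0.

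The log2 ratio of 2 probe sets on 1 array does not depend on how the array was scaled. The ratio of Hex-C to Hex-A averaged 0.13 ± 0.28 in fmn and -0.56 ± 0.31 in control (SD, n = 7 arrays each), a difference of 0.69. Its lowest fmn value was -0.29 (ZT 8) and its highest control value -0.30 (ZT 20), so the genotypes touched without overlapping.

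The 3 enzymes of the glycolytic trunk kept nearly the same mean in both genotypes. Pgi, which turns glucose 6-phosphate into fructose 6-phosphate, had a mean signal of 6531 ± 357 in fmn and 6414 ± 460 in control (SD, n = 7 arrays each), and a log2 difference of 0.01 (95% interval -0.10 to 0.13). Pfk, which catalyses the committed step of glycolysis, had 3953 ± 177 in fmn and 3825 ± 490 in control, with a difference of 0.04 (-0.12 to 0.20). Gapdh1 had 9870 ± 373 in fmn and 10104 ± 888 in control, with a difference of -0.04 (-0.17 to 0.08). These intervals lie within the threshold of 0.32 in either direction, and the signals of the genotypes overlapped for all 3 enzymes. The adjusted p of limma was 0.904 for Pgi, 0.752 for Pfk and 0.649 for Gapdh1, and the sign of these 3 small differences turned under some settings.

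The signals of Pfk and Gapdh1 varied less over the day in fmn than in control, without a test of this difference in spread. Pfk spanned 3737 (ZT 20) to 4128 (ZT 0) in fmn, a 1.10-fold range, and 3014 (ZT 20) to 4270 (ZT 4) in control, a 1.42-fold range. Gapdh1 spanned 9188 to 10404 in fmn, a 1.13-fold range, and 8662 to 11349 in control, a 1.31-fold range. At ZT 20, where both were lowest in control, the difference of fmn minus control was 0.31 for Pfk and 0.19 for Gapdh1.

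The gluconeogenic enzyme fbp was higher in fmn heads. Its signal ran from 3923 (ZT 8) over a median of 4180 to 5711 (ZT 24) in fmn, and from 2531 (ZT 12) over a median of 3489 to 3826 (ZT 0) in control. The groups did not overlap, but the lowest fmn array was only slightly above the highest control array. The means were 4409 ± 645 in fmn and 3339 ± 462 in control (SD, n = 7 arrays each), and the log2 change was 0.39 ± 0.10 (SE, adjusted p = 0.0188, limma). This was the least stable of the 4 calls. The change fell just below the threshold of size, which is 0.3219 before rounding, without the control array of ZT 12 (adjusted p = 0.0329, limma) or without the fmn array of ZT 24 (adjusted p = 0.0292, limma), to 0.317 at the lowest. It missed the false discovery rate with each array centred on its median (0.36, adjusted p = 0.0988, limma) and without the filter on low signals (0.39, adjusted p = 0.0803, limma). The log2 ratio of fbp to its glycolytic counterpart Pfk averaged 0.15 ± 0.24 in fmn and -0.20 ± 0.32 in control (SD, n = 7 arrays each). The highest control value of this ratio (0.21, ZT 20) lay above the lowest fmn value (-0.05, ZT 8), so the genotypes overlapped.

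CG8036, the transketolase gene, was higher in fmn heads with little spread between arrays. Its signal ran from 5326 (ZT 16) over a median of 5618 to 6295 (ZT 24) in fmn, and from 3463 (ZT 20) over a median of 3979 to 4462 (ZT 4) in control. The lowest fmn array was well above the highest control array. The means were 5702 ± 324 in fmn and 3933 ± 373 in control (SD, n = 7 arrays each), and the log2 change was 0.53 ± 0.06 (SE, adjusted p = 6.38e-05, limma). At single time points the difference lay between 0.37 (ZT 4) and 0.65 (ZT 20). The log2 ratio of CG8036 to Pgi within an array was nearly constant in fmn, at -0.20 ± 0.03, and lower and more variable in control, at -0.71 ± 0.10 (SD, n = 7 arrays each). The probe sets of CG8036, fbp and Pgi are of the _s_at type, which can match transcripts of more than 1 gene.

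Gld fell most. Glucose dehydrogenase oxidizes glucose outside the glycolytic route, is needed in Drosophila for the adult to leave the pupal case, and is also made in the reproductive tract of adults. Its signal ran from 254 (ZT 0) over a median of 302 to 352 (ZT 16) in fmn, and from 563 (ZT 4) over a median of 615 to 751 (ZT 12) in control. No fmn array came near the control range. The means were 301 ± 36.4 in fmn and 635 ± 63.5 in control (SD, n = 7 arrays each), and the log2 change was -1.10 ± 0.08 (SE, adjusted p = 1.86e-07, limma). The change ranked 15th by p among the 8641 tested probe sets, from which the filter had removed DAT and the scb probe set. On the arrays that carried organ transcripts, Gld had 309 (ZT 4) and 290 (ZT 8) in fmn and 589 (ZT 0) in control, within the range of the other arrays of each genotype. Without these 3 arrays its change was -1.11, and those of Hex-C, CG8036 and fbp were 0.68, 0.52 and 0.49, all 4 still called.

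**Figure D2:**
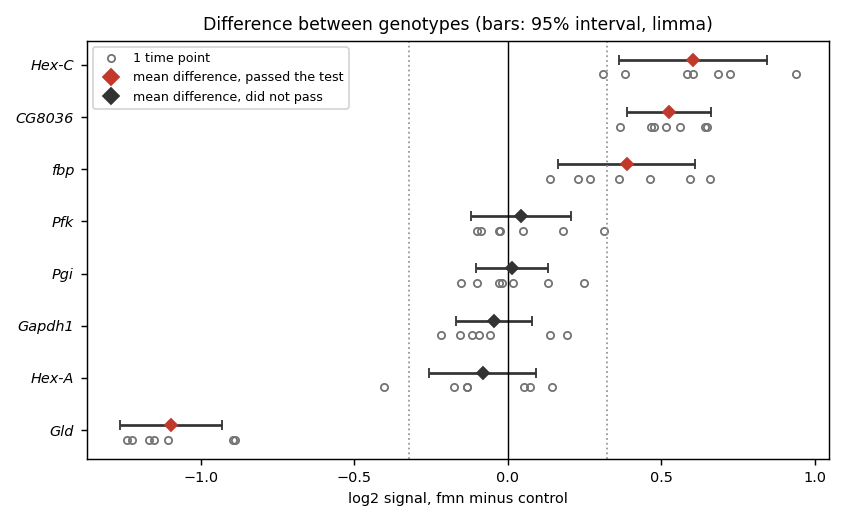
Log2 difference of fmn minus control (horizontal axis) for 8 enzymes (vertical axis, sorted from the highest). Diamonds are the means with 95% intervals from limma, red where the test was passed, open circles are the 7 single time points, and dotted lines mark the threshold of 0.32 in either direction. Hex-C, CG8036 and fbp stand to the right and Gld alone at -1.10 to the left.

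Over both genotypes together, 4 of the 8 enzymes followed a 24 h curve, against 14.3% of all tested probe sets (adjusted p under 0.05 in limma's F test of a cosine and a sine with genotype as a term). These were Hex-C, fbp, Gld and Pfk. The amplitude, the height of the curve's peak above its mean on the log2 scale, was 0.25 for Hex-C, 0.21 for fbp, 0.16 for Gld and 0.16 for Pfk, with standard errors of 0.05, 0.05, 0.04 and 0.04. In limma these curves had adjusted p-values of 0.00539 for Hex-C, 0.0332 for fbp, 0.0322 for Gld and 0.0477 for Pfk. CG8036 (amplitude 0.13, adjusted p = 0.0526, limma), Hex-A (0.16, 0.0985), Gapdh1 (0.10, 0.213) and Pgi (0.09, 0.250) did not pass. The median amplitude of the 8 enzymes was 0.16, against 0.08 over all tested probe sets.

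The fitted peaks fell at different times of day. Hex-C and fbp peaked late in the night, at ZT 22.9 (standard error 0.77 h) and ZT 22.1 (1.0 h). In both genotypes their lowest arrays were those of ZT 8 or ZT 12. Pfk peaked in the middle of the light phase, at ZT 5.78 (0.88 h), and was lowest at ZT 20 in control. In fmn its signal was lowest at ZT 20, but its scaled log2 value was lowest at ZT 16 (2.68, against 2.70 at ZT 20). Gld peaked at ZT 14.2 (0.98 h), early in the night, and its signals at ZT 0 and ZT 24 were below the median in fmn and at or below it in control. The curves that did not pass had fitted peaks at ZT 3.86 for CG8036, 5.08 for Hex-A, 5.33 for Pgi and 6.41 for Gapdh1.

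**Figure D3:**
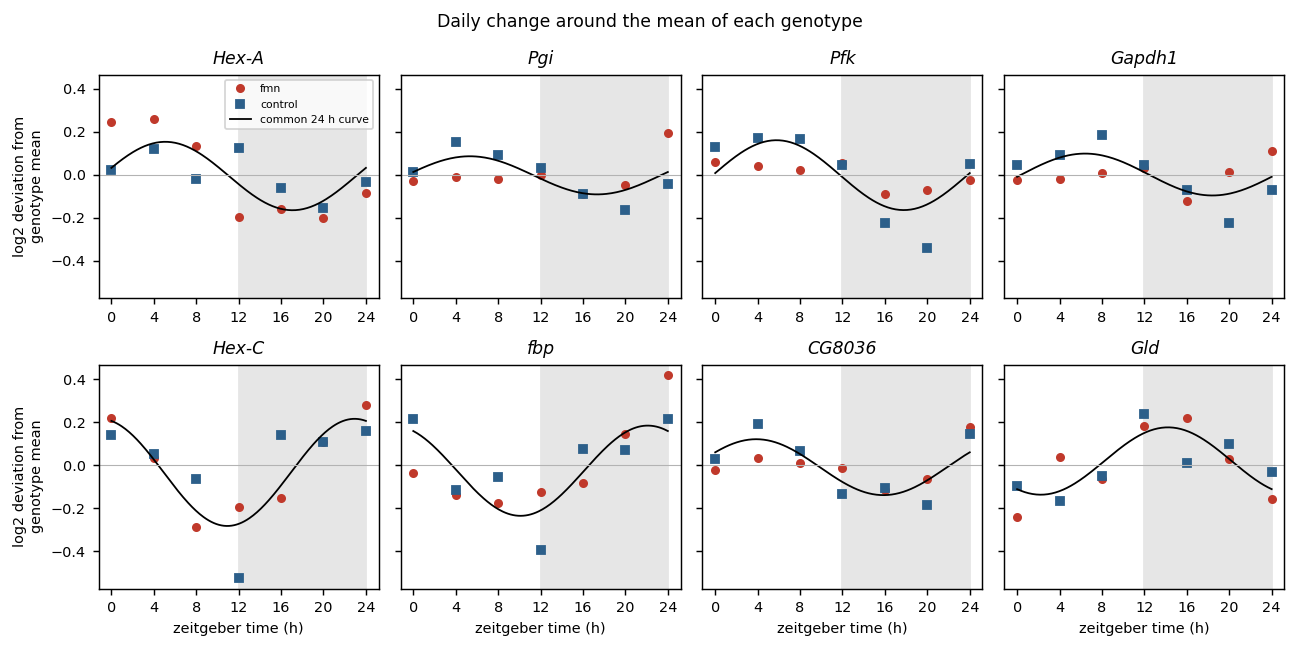
Deviation of the log2 signal from the mean of its genotype (vertical axis) against zeitgeber time in hours (horizontal axis, dark phase shaded), with 1 array per point in fmn (red circles) and control (blue squares) and the 24 h curve fitted to both. The curves of Hex-C and fbp have their trough around lights-off, and that of Pfk has its peak in the light phase.

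Only the call of Hex-C held when each array was left out in turn, in all 14 such fits. The call of fbp held in 8 of 14, that of Gld in 6 and that of Pfk in 3. The call of fbp was lost without the control array of ZT 0, 12 or 24 or the fmn array of ZT 8, 20 or 24 (adjusted p = 0.0513 to 0.0977, limma). That of Gld was lost without the control array of ZT 0, 4 or 12 or the fmn array of ZT 0, 12, 16, 20 or 24 (adjusted p = 0.0509 to 0.0894, limma). CG8036 passed without the fmn array of ZT 4 or 12 (adjusted p = 0.0486 to 0.0496, limma). The call of Pfk was lost without any 1 of the 7 control arrays or the fmn array of ZT 0, 16, 20 or 24 (adjusted p = 0.0504 to 0.126, limma). Without the 3 arrays that carried organ transcripts, Hex-C, Gld and Pfk passed (adjusted p = 0.0479, 0.0483 and 0.0193, limma) and fbp did not (adjusted p = 0.169, limma).

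Within 1 genotype the curves rest on 7 arrays, and few passed. In fmn, 0 of 8 enzymes were rhythmic, against 4.24% of all tested probe sets. At an unadjusted p under 0.05 the count was 3 in fmn (18.4% of all tested probe sets) and 6 in control (18.3%). In control 1 of 8 was rhythmic, against 5.15%, namely Pfk with an amplitude of 0.26 (standard error 0.05) and a peak at ZT 5.72 (adjusted p = 0.0276, limma). In fmn the amplitude of Pfk was 0.06 (standard error 0.05, adjusted p = 0.719, limma). The difference between these 2 curves had an unadjusted p of 0.0512 and an adjusted p of 0.998 in limma's test of the interaction. Hex-C passed in fmn without the control array of ZT 12 or 16 (adjusted p = 0.0128 and 0.0490, limma), whose spread enters the shared error, and in control without the control array of ZT 16 (adjusted p = 0.04996, limma). The rhythm of Pfk in control was lost without the control array of ZT 4, 8, 16 or 20 (adjusted p = 0.0588 to 0.126, limma) and without the 3 arrays that carried organ transcripts (adjusted p = 0.0694, limma). Hex-C had amplitudes of 0.26 in fmn and 0.24 in control, and peaks at ZT 23.1 in fmn and ZT 22.7 in control. The amplitudes of Hex-A were 0.24 in fmn and 0.10 in control, and those of Gapdh1 were 0.04 in fmn and 0.17 in control. None of the 8 enzymes passed the test of a difference in rhythm, and 0 of 8 had an unadjusted p under 0.05 in it. Over all tested probe sets, 0% passed and 349 (4.04%) had an unadjusted p under 0.05 in limma.

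ZT 0 and ZT 24 are both the moment of lights-on, a day apart, and no test was made between them. In fmn, 2 of the 8 enzymes had a difference of 0.32 or more from one lights-on to the next, against 9.51% of all tested probe sets. fbp was higher at ZT 24 than at ZT 0 by 0.46 and Hex-A was lower by a log2 difference of -0.33. In control 0 of 8 differed by that much, against 10.5% of all tested probe sets, with differences between -0.12 (Gapdh1) and 0.12 (CG8036). For fbp in fmn the distance between these 2 arrays exceeded the mean difference between the genotypes.

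The other genes of sugar metabolism were drawn up in 9 lists of 84 genes, of which 64 had a probe set and 41 were tested. Of these 41, 5 were higher and 0 lower in fmn, which is 12.2%, against 7.31% of all tested probe sets. With the threshold of size left aside, 10 were higher and 1 lower, against 7.27% higher and 11.4% lower of all tested probe sets (18.7% in all). These counts depended on the scaling. With each array centred on its median, Glut1, Galk, Sodh1 and tobi kept an adjusted p under 0.05 in limma. The others, namely muc, Pgls, Taldo, AGBE, Tps1, Tret1-1 and Mal-B2, did not (adjusted p = 0.122 to 0.487, limma). The median log2 difference of the 41 genes was 0.06, against -0.02 over all tested probe sets. Without the 3 arrays that carried organ transcripts, the changes of Glut1, Galk, Sodh1 and tobi were 0.60, 0.48, 0.72 and 1.12 and remained called, and that of AGBE was 0.33 and lost its call (adjusted p = 0.110, limma). Genes of these lists that did not pass both thresholds are named here with their values already seen.

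**Figure D4:**
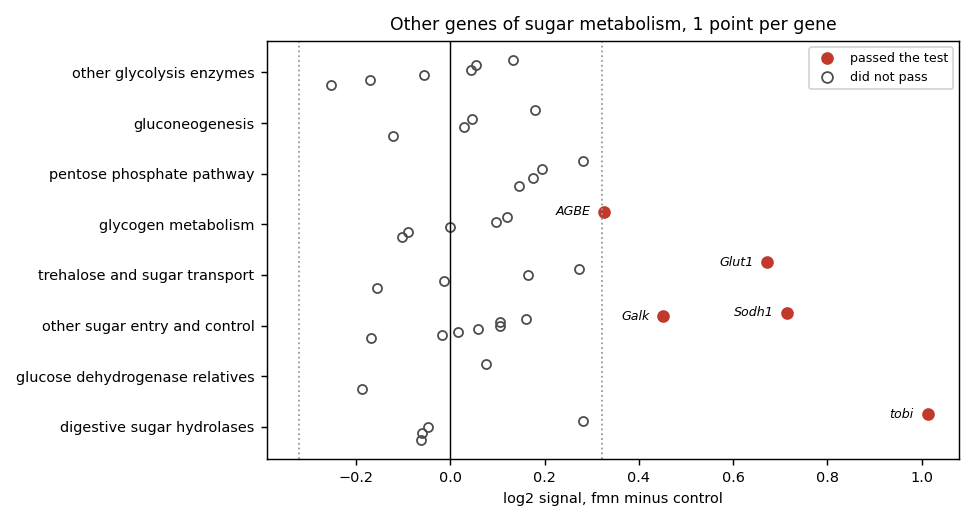
Log2 difference of fmn minus control (horizontal axis) for the 41 other tested genes of sugar metabolism, 1 point per gene, by list (vertical axis). Filled red points passed the test, open points did not, and dotted lines mark the threshold of 0.32 in either direction. All 5 red points, AGBE, Glut1, Galk, Sodh1 and tobi, lie to the right.

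Of the 6 other glycolysis genes tested, 0 were higher and 0 lower, with differences from -0.25 (Pglym78) to 0.13 (Pgk). Aldolase acts directly after Pfk, and the 2 tested probe sets of Ald1 disagreed. The brighter one differed by 0.05 (adjusted p = 0.740, limma), and the other had a mean signal of 4294 ± 372 in fmn and 3279 ± 335 in control (SD, n = 7 arrays each), a log2 change of 0.38 (adjusted p = 0.00286, limma). With each array centred on its median, this second probe set missed the test (adjusted p = 0.0583, limma). A subunit gene of the pyruvate dehydrogenase complex, muc, was lower by a log2 difference of -0.17 at an adjusted p of 0.00622 in limma, under the threshold of size. Of the 4 gluconeogenesis genes, 0 were higher and 0 lower, with differences of -0.12 for Pepck1, 0.18 for Pepck2, 0.03 for PCB and 0.05 for G6P, so that fbp alone of this route passed. The dimmer tested probe set of PCB differed by 0.22 (adjusted p = 0.0295, limma), under the threshold of size.

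All 4 tested genes of the pentose phosphate pathway, to which transketolase belongs, had positive differences, from 0.15 (Rpe) to 0.28 (Taldo), but 0 reached the threshold of size. Transaldolase (Taldo), the partner of transketolase in this pathway, had a mean signal of 7031 ± 589 in fmn and 5742 ± 678 in control (SD, n = 7 arrays each), an adjusted p of 0.0227 in limma and higher signals in fmn at all 7 time points. With quantile normalization Taldo passed both thresholds (0.33, adjusted p = 0.00627, limma), and with each array centred on its median it missed the false discovery rate (0.26, adjusted p = 0.170, limma). Pgls, which hydrolyses the lactone made in the oxidative branch, differed by 0.19 (adjusted p = 0.0328, limma).

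Among 6 glycogen genes 1 was higher and 0 lower. AGBE, the branching enzyme, had 1999 ± 208 in fmn and 1587 ± 254 in control (SD, n = 7 arrays each), a log2 change of 0.33 (adjusted p = 0.0323, limma). The change lay just above the threshold, and leaving out any 1 of 8 arrays ended the call (control at ZT 8, 12, 16 or 20, fmn at ZT 4, 8, 20 or 24, with differences of 0.29 to 0.32). Glycogen synthase (Glys) and glycogen phosphorylase (Glyp) did not pass.

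Of 5 tested genes of trehalose and sugar transport, 1 was higher and 0 lower. The glucose transporter gene Glut1 had a signal of 447 (ZT 12) to 822 (ZT 8) with a median of 790 in fmn, and of 399 (ZT 16) to 500 (ZT 8) with a median of 441 in control. The fmn array of ZT 12 lay within the control range, and the other fmn arrays lay above it. The log2 change was 0.67 ± 0.11 (SE, adjusted p = 0.00100, limma), and 0.79 without that array. The dimmer tested probe set of Glut1 differed by 0.24 and did not pass. The trehalose transporter gene Tret1-1 (0.27, adjusted p = 0.00863, limma) and the trehalose synthase gene Tps1 (0.17, adjusted p = 0.0476, limma) were higher in fmn at all 7 time points, by less than the threshold of size. Tret1-1 passed both thresholds with quantile normalization (0.33, adjusted p = 0.00427, limma) and missed the false discovery rate with median centring (0.25, adjusted p = 0.122, limma).

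Of 9 tested genes of sugar entry and control, 2 were higher and 0 lower. Galactokinase (Galk), which feeds galactose into the pathway, had 3586 ± 332 in fmn and 2597 ± 264 in control (SD, n = 7 arrays each), a log2 change of 0.45 (adjusted p = 0.00114, limma). Sodh1, a sorbitol dehydrogenase that makes fructose, had 1932 ± 329 in fmn and 1173 ± 227 in control, a log2 change of 0.72 (adjusted p = 0.00237, limma). For both genes the groups did not overlap. The sugar sensor genes Mondo, bigmax and sug differed by 0.06, -0.02 and 0.11 and did not pass. The brightest probe set of Gpdh1 differed by 0.10 (adjusted p = 0.110, limma). Its other tested probe sets differed by 0.24, 0.20 and 0.10 (adjusted p = 0.00911, 0.0386 and 0.804, limma), all under the threshold of size. The testis hexokinase genes Hex-t1 and Hex-t2 had mean signals of 19.3 and 15.2 in fmn and 26.6 and 15.5 in control, all under 100, and were not tested.

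Of 5 digestive sugar hydrolase genes tested, 1 was higher and 0 lower. The alpha-glucosidase gene tobi, named as a target of brain insulin, had a signal of 384 (ZT 0) to 921 (ZT 24) with a median of 481 in fmn, and of 189 (ZT 20) to 411 (ZT 24) with a median of 268 in control. The groups overlapped, though fmn was higher at all 7 time points, and the log2 change was 1.01 ± 0.22 (SE, adjusted p = 0.00517, limma). The 2 tested relatives of Gld, CG9512 and ninaG, differed by 0.08 and -0.19 and did not pass, and the 5 pyruvate kinase relatives with a probe set were all too dim to be tested.

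Of the 41 genes, 14 followed a 24 h curve over both genotypes, against 14.3% of all tested probe sets. Pepck2, named after its values had been seen, had an amplitude of 0.92 (standard error 0.10) and a peak at ZT 20.4 (adjusted p = 0.000103, limma). Glycogen synthase (Glys), also named after its values had been seen, had an amplitude of 0.29 (standard error 0.04) and a peak at ZT 5.02 (adjusted p = 0.000703, limma). The curve of Glys missed the test with each array centred on its median (amplitude 0.19, adjusted p = 0.196, limma). That of Pepck2 kept its call under all 21 other settings.

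For each enzyme that changed, the most similar profiles among the tested probe sets were sought by the root mean square (RMS) difference over the 14 arrays, after the mean of each profile was subtracted. The profile of Gld was nearest to those of Elovl7 (RMS 0.17 on the log2 scale) and TMEM216 (0.21), against an RMS of 0.57 of Gld around its own mean. CG8036 was nearest to CG11594 (0.06) and Nepl14 (0.08), Hex-C to CG44014 (0.12) and Est-Q (0.13), and fbp to Vago (0.08) and CG5171 (0.09). These likenesses include the difference between the genotypes.

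Summed signals of fat body markers were 68710 to 94205 in fmn (median 79948) and 83614 to 104595 in control (median 89628) over 7 genes. Most of this sum came from Yp1, Yp2, Yp3 and apolpp, with mean signals of 18130 to 21128 in fmn and 19711 to 25405 in control. The sum is therefore not read as an amount of fat body. Of these genes, apolpp differed by -0.14 and did not pass (adjusted p = 0.134, limma). Summed signals of 3 photoreceptor markers were 50747 to 64278 in fmn and 63563 to 75323 in control. Of the 5 tested fat body markers, 1 (Lsp2) was higher and 0 lower past both thresholds, and of the 3 photoreceptor markers 0 were higher and 0 lower past both thresholds. All 3 photoreceptor markers were nevertheless lower in fmn by less than the threshold of size, with differences of -0.25 for trp (adjusted p = 0.0104, limma), -0.23 for Arr1 (adjusted p = 0.0128, limma) and -0.26 for Arr2 (adjusted p = 0.0107, limma). Lsp2 had a mean signal of 2810 ± 1612 in fmn and 861 ± 502 in control (SD, n = 7 arrays each), while the yolk protein genes Yp1, Yp2 and Yp3 were lower, with differences of -0.28, -0.28 and -0.29 (adjusted p = 0.0252, 0.0139 and 0.0185, limma), under the threshold of size. Fbp1 and Fbp2 had mean signals under 100 in both genotypes. Among the 3 neuron markers, elav was higher in fmn (0.90, adjusted p = 0.0185, limma), at 6 of 7 time points, and nSyb differed by -0.09. The 2 tested probe sets of brp disagreed. One was lower in fmn (-0.38, adjusted p = 0.0446, limma) and missed the test with the time point as a block (adjusted p = 0.0508, limma), and the other differed by -0.06 (adjusted p = 0.743, limma). The part of such cells in the changes of Hex-C, fbp, CG8036 and Gld was not tested.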

How the data were processed

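Heads of fmn and control (w1118) flies were measured on 14 Affymetrix GeneChip Drosophila Genome 2.0 arrays, 7 per genotype, with genotype and time point taken from the sample labels. The deposited values are MAS5 signals, intensities on a linear scale that the authors calculated for each probe set. The MAS5 version and its scaling target are not given in the sources used here. After control probe sets were left out, 18769 probe sets remained, of which 13646 name 1 gene, 402 several and 4721 none in the platform annotation. Symbols were updated through a RefSeq table (13543 probe sets found), whose Release 6 gene order was used to count genes between 2 genes. The number of arrays limits the precision.

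Signals were put on the log2 scale and shifted so that the 75th percentile was equal on all arrays. The filter took out probe sets that were under 100 on 7 or more of the 14 arrays and kept 8641. Genotypes and 24 h curves were tested with limma 3.58.1 in R 4.3.3 (lmFit, eBayes, Benjamini-Hochberg over the 8641 probe sets), in place of the t-test of the study's methods. The fits of genotype and of 24 h curves were first tested on simulated data. The arrays of 1 time point deviated together between genotypes (r between 0.132 and 0.503 over tested probe sets for the 7 times). For the control arrays of ZT 0 and ZT 12, however, an fmn array of another time had the higher r. The time point pairs the arrays as sampling time, and a fit with it as a block was an alternative. Other alternatives were the scaling, the filter, a pseudocount of 32, the test, the fold threshold and leaving out arrays.

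The enzymes and gene lists were chosen with earlier results of these data known. All enzymes with a probe set are described. A gene is represented by its brightest probe set, and others are given where they disagree on an adjusted p under 0.05. Of the pathway lists the changed genes are named, at most 4 a list, and for each changed enzyme the 2 nearest profiles.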

Additional observations from a re-analysis of the deposited data

Results flagged for a closer look

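In each of the 16 groups made by 8 enzymes and 2 genotypes, the highest and the lowest of the 7 arrays were set against the others, as log2 signals relative to the 75th percentile of the array, with Dixon's test at its 95% critical value. Such a test flags about 5% of groups by chance, and 2 were flagged here. In control, Hex-C was at 1.29 at ZT 12, the nearest other control array at 1.75 and the highest at 1.97, so the gap was 0.672 of the whole range. In fmn, Pgi was at 3.69 at ZT 24, the nearest other fmn array at 3.49 and the lowest at 3.40, so the gap was 0.687 of the whole range.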

How the results depend on the processing

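Hex-C, CG8036 and Gld were called changed under all 24 other settings, with log2 differences of 0.52 to 0.68 for Hex-C, 0.49 to 0.56 for CG8036 and -1.13 to -1.02 for Gld. The call of fbp ended under 4 of them, given with its values, and 3 to 4 enzymes were called in every setting, 3 to 4 also with single arrays left out. With the replicate block for the time point, 4 enzymes and 696 probe sets changed, and no call of an enzyme differed from that without it. Without the fold threshold 1615 probe sets changed. With each array centred on its median 505 changed, 41.0% of them higher in fmn, against 50.5% of 632. The call of AGBE ended under 13 of 24 settings. The call of Vago ended under 3 and that of CG5171 under 5. Small differences that did not pass turned in sign for Pgi (-0.013 with median centring, -0.019 to 0.039 with single arrays left out), Pfk (-0.014 to 0.071 with single arrays left out), Gapdh1 (0.044 with quantile normalization) and Ald1 (-0.043 without the 3 arrays that carried organ transcripts).

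The curves depended more on the processing. Over both genotypes, 2 enzymes were rhythmic with median centring (8.45% of all probe sets tested), 1 without the filter on low signals (3.08%), 1 without the 2 arrays of ZT 24 (12.9%), 6 with quantile normalization (15.9%) and 1 to 5 with single arrays left out, against 4 (14.3%). In control 0 were rhythmic with median centring (2.5%), without the filter (0.389%), without the 3 arrays that carried organ transcripts (2.23%) or without the arrays of ZT 24 (3.04%), and 0 to 1 with single arrays left out, against 1 (5.15%). In fmn 0 to 1 were rhythmic with single arrays left out, against 0. The number with a difference in rhythm was 0 under all 21 settings. The cause of the shifts in these counts was not tested. Some settings also had fewer arrays or more probe sets tested, but median centring changed neither. With 1 array per time point and genotype, no single time point has a replicate. Signals near the floor of 100 carry little information, so the dim relatives of these enzymes cannot be judged.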
